A study of Homo sapiens with 4 samples.

Results

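The immediate early genes EGR1, EGR2, EGR3, FOS, FOSB, FOSL1, JUN, JUNB, IER2 and MYC were followed on 4 Illumina Expression BeadChip arrays of human embryonic stem cells. They were chosen by name, as all probes that the platform annotation gives to these 10 symbols. Of the 10 genes, 9 had a probe, 11 probes in all of 47296 on the array, and 7 were detected on at least 1 array, among 12083 genes detected in the whole series. EGR2 had no probe in the annotation and its level was not analysed here. Each condition was measured on 1 array. The Mesoderm cells received BMP4 in E8 medium for 6 days, as a control for differentiation. The Nam cells received 10 mM nicotinamide, the amide form of vitamin B3, in E8 for 24 h. The Y27632 cells received 10 µM of this small-molecule kinase inhibitor in E8 for 24 h. The E8 cells stayed in plain E8, a defined medium that keeps the cells pluripotent, and are labelled 24 h. All 4 cultures grew on Matrigel with a daily change of medium, per the labels' protocols. The sources used here do not give the time between the last change of medium and harvest, the cell density of each culture or the BMP4 dose. The labels name the line both as H9 and as H1, which are established embryonic stem cell lines. There was no array of cells kept for 6 days without BMP4, so BMP4 and time in culture cannot be told apart.

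Immediate early genes are transcribed within minutes of a growth factor, serum or stress signal, from factors already present in the cell and without new protein synthesis. Signals through the ERK pathway reach the promoters of FOS and EGR1 through SRF and its ETS partners such as ELK1, and cyclic AMP and stress signals reach them through CREB and related factors. FOS and JUN proteins pair as the transcription factor AP-1, EGR1 is a zinc finger activator, and MYC drives growth and is sustained in pluripotent cells. Most of these transcripts decay quickly after a pulse, so that their level depends on how long before harvest the cells last met a stimulus, fresh medium included.

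The bases before the annotated start are shown for EGR1, FOS and JUN, the members detected on both arrays whose level on the Mesoderm array was over 2-fold that on E8, and for IER2, which was lower there. MYC was lower by more, but no window was searched for MYC, EGR3 or FOSL1. They are RefSeq sequences of build GRCh38.p14, 250 bases each, read 5′ to 3′ along the gene's strand. Capitals mark matches, on either strand, to the CArG box bound by SRF, to the core of the cyclic AMP response element (CRE core: TGACG, or CGTCA on the other strand), to TATAAA and to the EGR site (GCGNGGGCG).
EGR1, chr5:138465229-138465478, plus strand: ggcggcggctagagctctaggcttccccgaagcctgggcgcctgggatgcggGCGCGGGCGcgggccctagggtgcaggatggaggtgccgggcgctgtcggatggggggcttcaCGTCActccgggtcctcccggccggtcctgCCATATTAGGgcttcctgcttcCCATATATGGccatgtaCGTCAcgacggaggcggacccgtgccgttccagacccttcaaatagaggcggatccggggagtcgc
FOS, chr14:75278578-75278827, plus strand: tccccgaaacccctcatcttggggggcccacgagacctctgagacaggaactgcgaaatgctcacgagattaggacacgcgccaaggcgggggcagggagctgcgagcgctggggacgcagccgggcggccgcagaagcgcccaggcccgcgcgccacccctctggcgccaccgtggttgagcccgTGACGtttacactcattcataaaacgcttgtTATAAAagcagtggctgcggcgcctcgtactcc
JUN, chr1:58784048-58784297, minus strand: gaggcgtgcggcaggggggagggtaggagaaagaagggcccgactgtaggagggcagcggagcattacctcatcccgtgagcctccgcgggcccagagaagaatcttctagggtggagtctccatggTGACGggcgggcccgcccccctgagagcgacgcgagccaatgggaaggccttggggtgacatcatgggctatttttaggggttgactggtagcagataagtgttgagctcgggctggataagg
IER2, chr19:13150161-13150410, plus strand: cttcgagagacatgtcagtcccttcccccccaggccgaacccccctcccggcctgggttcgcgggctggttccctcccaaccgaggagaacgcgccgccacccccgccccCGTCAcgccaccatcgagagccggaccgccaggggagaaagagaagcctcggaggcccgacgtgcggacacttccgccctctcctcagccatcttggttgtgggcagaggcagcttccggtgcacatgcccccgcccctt

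EGR1 held 2 CArG boxes in this window, CCATATTAGG from 105 to 96 bases before the start and CCATATATGG from 83 to 74. A CArG box was found in 1.16% of all 35116 annotated windows of this length. The window of EGR2, the member with no probe, held CCATATATGG from 71 to 62 bases before 1 of its annotated starts. A CRE core was found in all 4 windows, and in 21.2% of all windows. The windows of FOSB and JUNB, not shown, and the same EGR2 window also held a CRE core. TATAAA stood from 33 to 28 bases before the start of FOS and was found in 10.7% of all windows. It also stood from 30 to 25 bases before the start of FOSB and from 31 to 26 before that of JUNB. An EGR site stood from 198 to 190 bases before the start of EGR1 and was found in 8.41% of all windows. None of the 4 windows held the full element TGACGTCA (1.65% of all windows) or an AP-1 site, TGACTCA or TGAGTCA (4.2%). The search took these exact letters, so a near match such as tgacatca in the JUN window was not marked. The map of motif matches shows these positions. A match describes the letters of this window alone, and the window leaves out sites further upstream, such as the serum response element known for FOS.

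**Figure D1:**
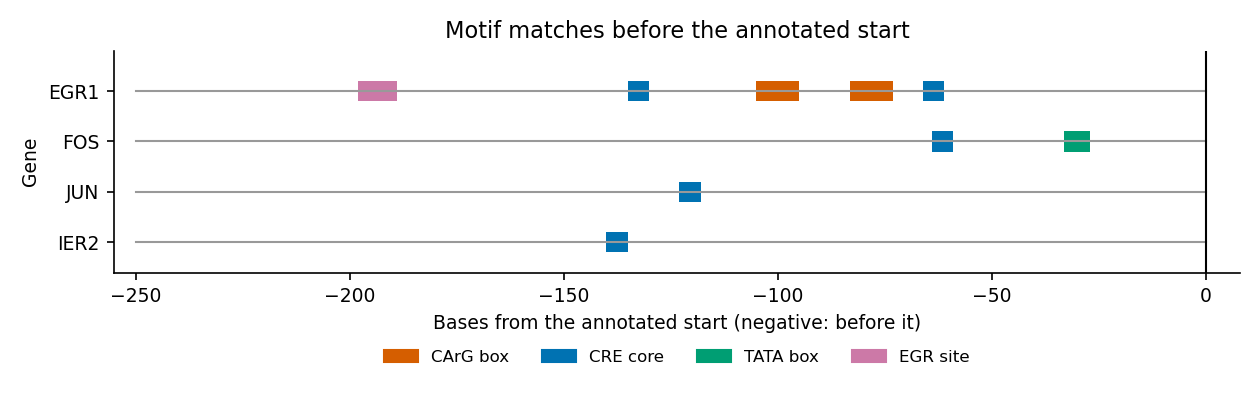
Matches to 4 motifs in the 250 bases before the annotated start of EGR1, FOS, JUN and IER2, by distance from the start (x axis, bases). The 2 CArG boxes of EGR1 lie between 105 and 74 bases before the start, and the other 3 windows hold no CArG box.

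The signal of each probe is an intensity in arbitrary units, not background-corrected, and a probe was called detected when its detection p-value was at most 0.01. FOS, the leading partner of JUN in AP-1, had a signal of 704 on the Mesoderm array, 312 on Nam, 323 on Y27632 and 358 on E8, detected on all 4. JUN, which can also pair with itself, had 655 on Mesoderm, 232 on Nam, 267 on Y27632 and 304 on E8, detected on all 4. EGR1 had 448 on Mesoderm, 213 on Nam, 171 on Y27632 and 200.2 on E8. Each of these 3 genes was highest on the Mesoderm array, with the other 3 arrays close together in these signals. After the normalization described below this held for FOS and JUN, while EGR1 was higher on Nam than on Y27632 by 1.01 log2 units. EGR1 on Y27632 missed the detection threshold narrowly, with a detection p-value of 0.0104.

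FOSB, a FOS relative, had a signal of 184 on Mesoderm, 130.2 on Nam, 157 on Y27632 and 166 on E8. Its detection p was 0.00519 on Mesoderm, 0.425 on Nam, 0.039 on Y27632 and 0.013 on E8, so that only the Mesoderm array passed. FOSL1 (FRA1), which replaces FOS in AP-1 of longer-stimulated cells, had 179 on Mesoderm, 152 on Nam, 152 on Y27632 and 135 on E8. Only Mesoderm passed here too, at a detection p of 0.00779, with 0.0221 on Nam, 0.0649 on Y27632 and 0.387 on E8. JUNB, a JUN relative that restrains it in some settings, was not detected on any array, with signals of 145 on Mesoderm, 124 on Nam, 122 on Y27632 and 139 on E8. Neither of the 2 probes of EGR3, an EGR1 relative, was detected on any array, with signals from 116 to 148 and detection p from 0.24 to 0.91. These 4 genes lay at or near the background, where a signal says little of the transcript.

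IER2, a short-lived nuclear protein gene, had a signal of 265 on Mesoderm, 283 on Nam, 308 on Y27632 and 362 on E8, detected on all 4 and highest on E8. MYC was the member with 2 detected probes. The first had a signal of 844 on Mesoderm, 2054 on Nam, 1468 on Y27632 and 1750.0 on E8. The second, which stands for the gene below because its level averaged over the arrays was higher, had 969 on Mesoderm, 2014 on Nam, 1429 on Y27632 and 1673 on E8. Both probes gave the same order, with Nam highest, then E8, then Y27632, and Mesoderm lowest.

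**Figure D2:**
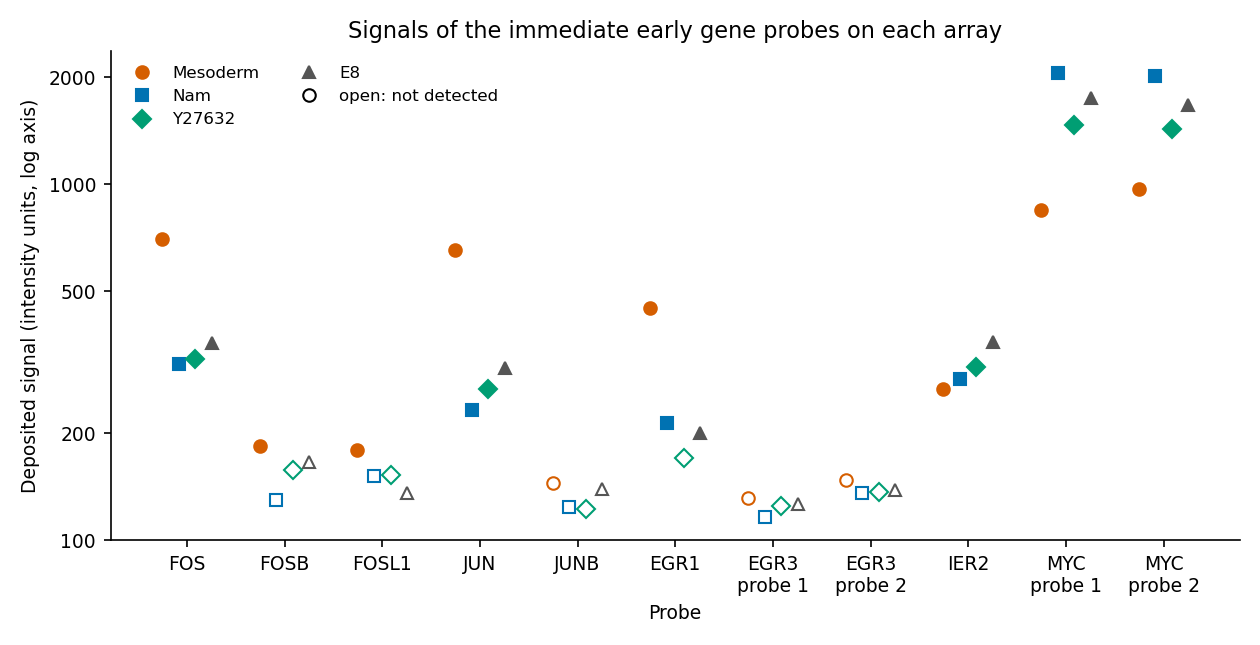
Deposited signal of each of the 11 probes of the immediate early genes (y axis, intensity units, log axis) on the Mesoderm, Nam, Y27632 and E8 arrays, 1 point per array. Open points were not detected (detection p above 0.01). FOS, JUN and EGR1 stand highest on Mesoderm and both MYC probes stand lowest there.

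Levels and differences below are on a log2 scale after background correction and quantile normalization of the 4 arrays together. These arrays had mean signals from 528.5 to 620.5 and between 16509 and 18051 detected probes each. All 8 markers of pluripotent cells were detected on Nam, Y27632 and E8, and 5 of 8 on Mesoderm, where SOX2, PRDM14 and UTF1 were not. All 9 markers of primitive streak and mesoderm were detected on Mesoderm, against 1 of 9 on E8. With 1 array per condition there was no replicate check and no test, so what an array owes to its treatment and what to its culture, RNA or hybridisation cannot be told apart. Probes of the same gene gave a technical spread, the SD of their differences pooled over genes with several detected probes. For Mesoderm minus E8 it was 0.51 at mean levels under 8, 0.35 from 8 to 10 and 0.24 above 10. For Nam minus E8 the same values were 0.36, 0.25 and 0.19, and for Y27632 minus E8 they were 0.32, 0.19 and 0.13. The number of arrays limits the precision. The 3 comparisons with E8 share that array.

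The comparison of Mesoderm with E8 sets the differentiated culture against the pluripotent one. The AP-1 genes FOS and JUN and the zinc finger gene EGR1 were over 2-fold higher on Mesoderm, and MYC was lower by less than 2-fold. EGR1 had a level of 8.34 on Mesoderm and 6.17 on E8, a difference of 2.17 (4.49-fold), the largest among the members in these values. JUN had a level of 9.04 on Mesoderm and 7.31 on E8, a difference of 1.73 (3.31-fold). FOS had a level of 9.17 on Mesoderm and 7.70 on E8, a difference of 1.47 (2.78-fold). Each of these 3 differences was larger than the spread between probes at its level, and 2.69%, 4.28% and 5.69% of all compared genes had higher differences than EGR1, JUN and FOS in that order. Each of the 3 rests on 1 probe. In deposited signals the ratio of Mesoderm to E8 was 2.24 for EGR1, 2.16 for JUN and 1.96 for FOS. Without background correction JUN differed by 1.217 and EGR1 by 1.212, so that EGR1 was not the largest there.

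FOSL1 differed by 1.03 in normalized values, but E8 did not detect it, and the bound is at least 1.10-fold. FOSB differed by 0.38 in normalized values, with a bound of at least 1.20-fold against E8, and by 0.12 without background correction. Both entered the comparison through their detection on Mesoderm alone, and such an entry favours a higher value there. IER2 had a level of 7.14 on Mesoderm and 7.72 on E8, a difference of -0.58 that barely exceeded the spread of 0.51 at this level. The second MYC probe had a level of 9.72 on Mesoderm and 10.43 on E8, a difference of -0.70, and the first differed by -0.996. Their mean was -0.85 with an SD of 0.21 between the 2 probes. Of all compared genes, 18.8% had lower differences than the second MYC probe, and 22.7% had lower differences than IER2. Of the 10 members, 7 were compared, 4 were at least 2-fold higher by normalized values (EGR1, JUN, FOS and FOSL1) and 0 were 2-fold lower. Over all 11649 compared genes 10.6% were 2-fold higher and 11.4% 2-fold lower. The median difference of the 7 was 1.03, and 0.26 with the genes not detected on E8 set at their bounds, against -0.02 over all genes.

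Among the markers of other cell types, the summed signal moved with this comparison. For the 9 primitive streak and mesoderm markers it was 24921.0 on Mesoderm and 1367.5 on E8. For the 8 pluripotency markers it was 11349.3 on Mesoderm and 38786.6 on E8. It was 12555.0 on Mesoderm and 6257.5 on E8 for the 6 fibroblast and smooth muscle markers, and 4342.9 on Mesoderm and 817.5 on E8 for the 6 trophoblast and amnion markers, of which CDX2, CGA and KRT7 were not detected on either array. The 4 endoderm markers summed to 3054.5 on Mesoderm and 555.9 on E8, with AFP not detected on either, and the 5 neuroectoderm markers to 1763.1 on Mesoderm and 4103.9 on E8, with PAX6 and SOX1 not detected on either. Single markers ran against 2 of these sums. THY1, a surface protein of fibroblasts and also of pluripotent stem cells, had a signal of 553 on Mesoderm and 3833 on E8. OTX2 had 1060.0 on Mesoderm and 456 on E8, while SIX6, which made up most of the neuroectoderm sum on E8, had 141 on Mesoderm and 2844 on E8. The part of these cell types in the levels of the immediate early genes was not tested. In a bulk sample, fewer cells of a type and less RNA per cell cannot be told apart.

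**Figure D3:**
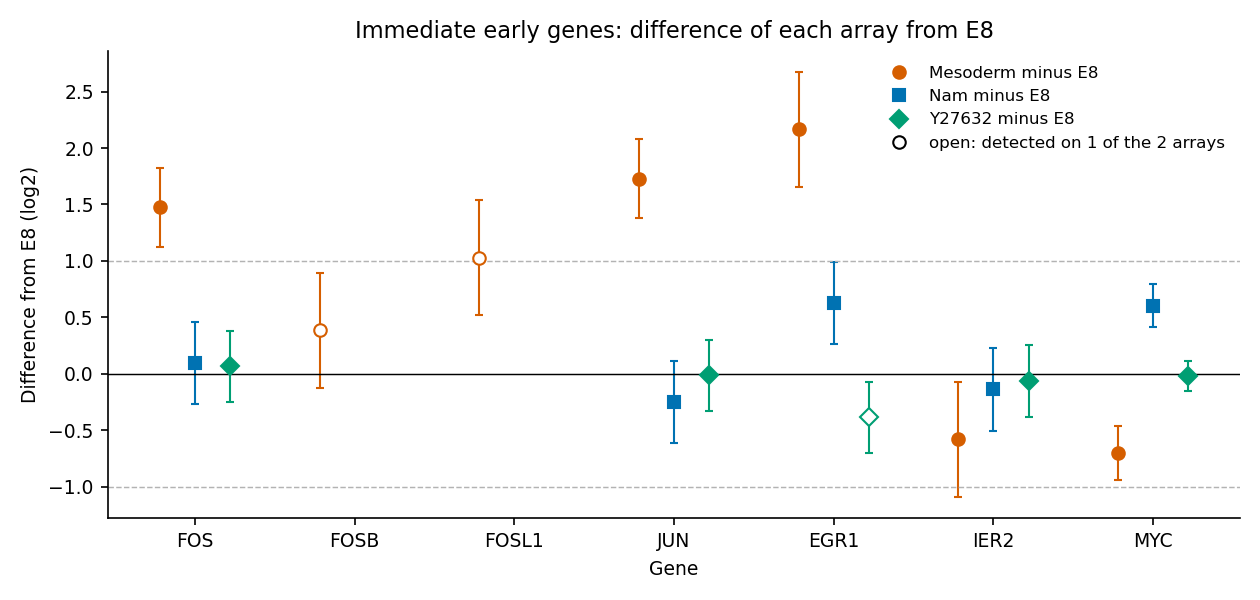
Difference from E8 (y axis, log2) of the 7 detected immediate early genes on the Mesoderm, Nam and Y27632 arrays. Bars are 1 SD between probes of a gene, pooled over genes of like level, and do not cover variation between cultures; open points were detected on 1 of the 2 arrays, and dashed lines mark 2-fold. EGR1, JUN and FOS lie above 1 on Mesoderm, and MYC lies at 0.60 on Nam and -0.70 on Mesoderm.

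Nam against E8 shows the cells after 24 h of nicotinamide. MYC and EGR1 were higher on Nam, each by slightly over 1.5-fold, and the AP-1 genes differed little. The second MYC probe had a level of 11.03 on Nam and 10.43 on E8, a difference of 0.60, and the first differed by 0.57. The 2 probes lay within an SD of 0.026, and the difference exceeded the spread of 0.19 at this level. EGR1 had a level of 6.80 on Nam and 6.17 on E8, a difference of 0.63, on a single dim probe at a level with a spread of 0.36. In deposited signals its ratio was 1.06. JUN differed by -0.25, IER2 by -0.14 and FOS by 0.10, all within the spread between probes at their levels. The FOS difference turned to -0.13 with median scaling, which moved the median of all genes to -0.15, and its deposited signal was lower on Nam than on E8.

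Of the 10 members, 5 were compared between Nam and E8 and 0 differed by 2-fold, against 2.26% of all 11390 compared genes. MYC and EGR1 were the 2 members at least 1.5-fold higher, where 4.93% of all genes were, and 0 were 1.5-fold lower, where 6.69% were. With 5 genes compared, each count of 0 is near the share over all genes. The median difference of the 5 was 0.10, against 0.04 over all genes. FOSB and FOSL1 were detected on neither array. The summed signal of the 5 neuroectoderm markers was 1503.2 on Nam and 4103.9 on E8, and that of the 8 pluripotency markers was 29934.5 on Nam and 38786.6 on E8. These sums are not normalized, and the mean signal of the array was 528.5 on Nam and 620.5 on E8. After normalization the median difference was -1.22 over the 3 compared neuroectoderm markers. It was -0.14 over the 8 pluripotency markers, of which 1 was 2-fold lower. For the 6 fibroblast and smooth muscle markers the summed signal was 4145.0 on Nam and 6257.5 on E8. TAGLN, the smooth muscle gene for transgelin, differed by -1.64 and the collagen gene COL1A2 by -0.96, while COL1A1 differed by 0.09 and THY1 by -0.12. The 2 TAGLN probes had a mean of -1.33 with an SD of 0.44. ACTA2 and LUM were detected on neither array. TAGLN also differed from E8 by -1.35 on Y27632. The part of these markers in the MYC and EGR1 differences was not tested.

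Y27632 against E8 shows the cells after 24 h of the kinase inhibitor. The members stayed close to their E8 levels, with EGR1 as the furthest. MYC differed by -0.02 for the second probe and -0.06 for the first, JUN by -0.01, IER2 by -0.06 and FOS by 0.07, all within the spread between probes at their levels. The FOS difference turned to -0.15 with median scaling, which moved the median of all genes to -0.16. EGR1 had a level of 5.78 on Y27632 and 6.17 on E8, a difference of -0.39. Since Y27632 did not detect it, its bound in normalized values was at least 1.27-fold lower there. The difference was -0.25 with an offset of 50 and -0.13 without background correction, both short of that bound. Of the 10 members, 5 were compared, and 0 differed by 2-fold, where 0.41% of all 10989 compared genes did, or by 1.5-fold, where 3.61% did. With 5 genes compared, these counts of 0 are near the shares over all genes. The median of the 5 was -0.02, against 0.01 over all genes.

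Set side by side, nicotinamide and Y27632 were used at different doses, 10 mM and 10 µM, for the same 24 h. EGR1 was higher on Nam than on Y27632 by 1.01 in normalized values, and with Y27632 at its bound by at least 1.97-fold. In deposited signals the ratio was 1.25. By normalized values it was the 1 member at 2-fold, where 0.635% of all 11173 compared genes were 2-fold higher. It was under 2-fold with median scaling (0.98), in the authors' values (0.79), with an offset of 50 (0.71) and without background correction (0.40). MYC was higher on Nam than on Y27632 by 0.62 for both probes, within an SD of 0.0016. JUN differed by -0.24, IER2 by -0.07 and FOS by 0.03.

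For each member, the arrays were ordered by level. EGR1 ran from Y27632 through E8 and Nam to Mesoderm. Its step of 0.39 between Y27632 and E8 was close to the spread of 0.32, and its step from Nam to Mesoderm was the widest. FOS and JUN stood highest on Mesoderm, and their levels on Nam, Y27632 and E8 did not differ beyond the spread between probes. IER2 stood lowest on Mesoderm, with the other 3 arrays within that spread. MYC was lowest on Mesoderm and highest on Nam, and Y27632 and E8 did not differ beyond the spread. Among the members detected on all 4 arrays JUN had the widest range, 1.98. Of 9484 genes detected on all 4 arrays, those whose 3 differences from E8 lay nearest to those of JUN were GALC, at a Euclidean distance of 0.05 log2 units, MAGED2 (0.06), TIMP1 (0.07) and RHOC (0.09). GALC, for example, differed from E8 by 1.73 on Mesoderm, -0.28 on Nam and 0.02 on Y27632, where JUN differed by 1.73, -0.25 and -0.01. With 3 differences per gene, this closeness describes these 4 arrays alone.

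Of 15 other immediate early transcription factors, 12 were compared between Mesoderm and E8. Of these, 7 were 2-fold higher or more by normalized values and 0 were 2-fold lower, where 10.6% and 11.4% of all compared genes were. The 7 include KLF10, named here after its values were seen, which E8 did not detect and whose bound was at least 1.66-fold. With detection required on both arrays, 6 of 10 were 2-fold higher. The furthest were KLF2 at 1.61 and KLF6 at 1.59, both zinc finger factors, ATF3, a stress-induced partner of JUN, at 1.44, and JUND, the JUN relative that is active in resting cells, at 1.28. JUND had a signal of 16877 on Mesoderm and 8011 on E8. The median of the 12 was 1.15, and 0.95 with dim genes at their bounds. Without background correction, 4 of the 12 were 2-fold higher. With the mean over probes, 1 was 2-fold lower, KLF4, a zinc finger factor named here after its values were seen. Its chosen probe differed by -0.49, and its 2 probes had a mean of -1.28 with an SD of 1.11. On Nam, 0 of 11 differed from E8 by 2-fold, where 2.26% of all genes did, and 3 were at least 1.5-fold lower, where 6.69% were. BHLHE40, a repressor tied to the circadian clock and hypoxia, was the furthest at -0.90, with a signal of 447 on Nam and 909 on E8, and it passed 2-fold with median scaling (-1.10). On Y27632, 0 of 10 differed from E8 by 1.5-fold, where 3.61% of all genes did, with KLF2 the furthest at 0.56. In lists as small as this and those below, a count of 0 on Nam or Y27632 is near the share over all genes.

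Of 22 other immediate early genes, 19 were compared between Mesoderm and E8, and 10 were higher and 2 lower by 2-fold or more. Over all genes 10.6% were higher and 11.4% lower by as much. The matrix proteins CCN1 (3.69) and CCN2 (3.44), GADD45B, a stress-response protein (3.22), and ID3 (3.06) were furthest. CCN1 and CCN2 are also targets of YAP, and ID1 and ID3 are direct targets of BMP signalling. GADD45B had a signal of 1049 on Mesoderm and 233 on E8. TRIB1 and SGK1 were the 2 lower genes, at -1.75 and -1.52, and are named here after their values were seen. On Nam, 0 of 18 differed from E8 by 2-fold, where 2.26% of all genes did. IER3, a survival gene induced by growth factors and NF-kappa-B, came nearest at -0.99, with a signal of 1508 on Nam and 3544 on E8, and it passed 2-fold with median scaling (-1.15). On Y27632, 0 of 18 differed from E8 by 1.5-fold, where 3.61% of all genes did, with CCN2 the furthest at -0.41.

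Of 13 EGR co-repressors and AP-1 partners, 6 were compared. NAB2, which binds EGR proteins and blocks their activity, was higher than E8 by 1.04 on Mesoderm and by 1.05 on Y27632. Its signal was 300.3 on Mesoderm, 285 on Y27632 and 216 on E8, on 1 probe. Both differences passed 2-fold under 4 of 8 alternatives, those of detection and the probe rule, which left them unchanged. With another offset, no background correction, median scaling or the authors' values they stayed under 2-fold. The lowest were 0.53 on Mesoderm and 0.54 on Y27632. ATF2, a partner of JUN, was higher on Mesoderm by 1.09, and JDP2, a repressor that pairs with JUN, differed by -1.08 on Y27632. Each passed 2-fold under 5 of 8 alternatives, counting those that left it unchanged. The smallest differences were 0.70 for ATF2 and -0.46 for JDP2. On Nam, 0 of the 6 differed from E8 by 2-fold, where 2.26% of all genes did, and MAF was furthest at -0.61.

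In the MYC network, 10 of 11 genes were compared. MYCN, the MYC relative of early embryonic and neural cells, differed by -1.62 on Mesoderm, with a mean of -1.69 over 2 probes and an SD of 0.097. Its signal was 1425 on Mesoderm and 4588 on E8. MYCL differed by -1.43 in normalized values and was at least 1.32-fold lower on Mesoderm. MXD4 (1.38) and MXD3 (1.19), which compete with MYC for its partner MAX, were higher on Mesoderm. MXD3 passed 2-fold under 5 of 8 alternatives, counting those that left it unchanged, and was 0.64 at the lowest. In all, 3 were higher and 2 lower by 2-fold or more, where 10.6% and 11.4% of all genes were. With an offset of 50 or without background correction, 1 was higher and 1 lower. On Nam 0 of 10 differed from E8 by 2-fold, where 2.26% of all genes did. MYCL differed there by -0.65 in normalized values, with a bound of at least 1.39-fold, and by as little as -0.20 in the alternatives. On Y27632, 0 of 10 differed from E8 by 2-fold, where 0.41% of all genes did. MXD1 was furthest at -0.79 in normalized values, with no bound that can be given.

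Among upstream factors and kinases, 15 of 20 genes had a probe and all 15 were compared. On Mesoderm RPS6KA2, a kinase downstream of ERK, differed from E8 by -1.86, and ELK3, an ETS partner of SRF, was higher by 1.05. ELK3 passed 2-fold under 4 of 8 alternatives, those that left it unchanged, and was 0.39 at the lowest. SRF itself differed by 0.10, named here after its value was seen. On Nam, 0 of 15 differed from E8 by 2-fold, where 2.26% of all genes did, with MRTFB, a co-activator of SRF, furthest at 0.75. On Y27632, 0 of 15 did so, where 0.41% of all genes did, with MAP2K2 furthest at -0.34. The medians of this list were -0.03 on Mesoderm, 0.01 on Nam and 0.00 on Y27632.

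**Figure D4:**
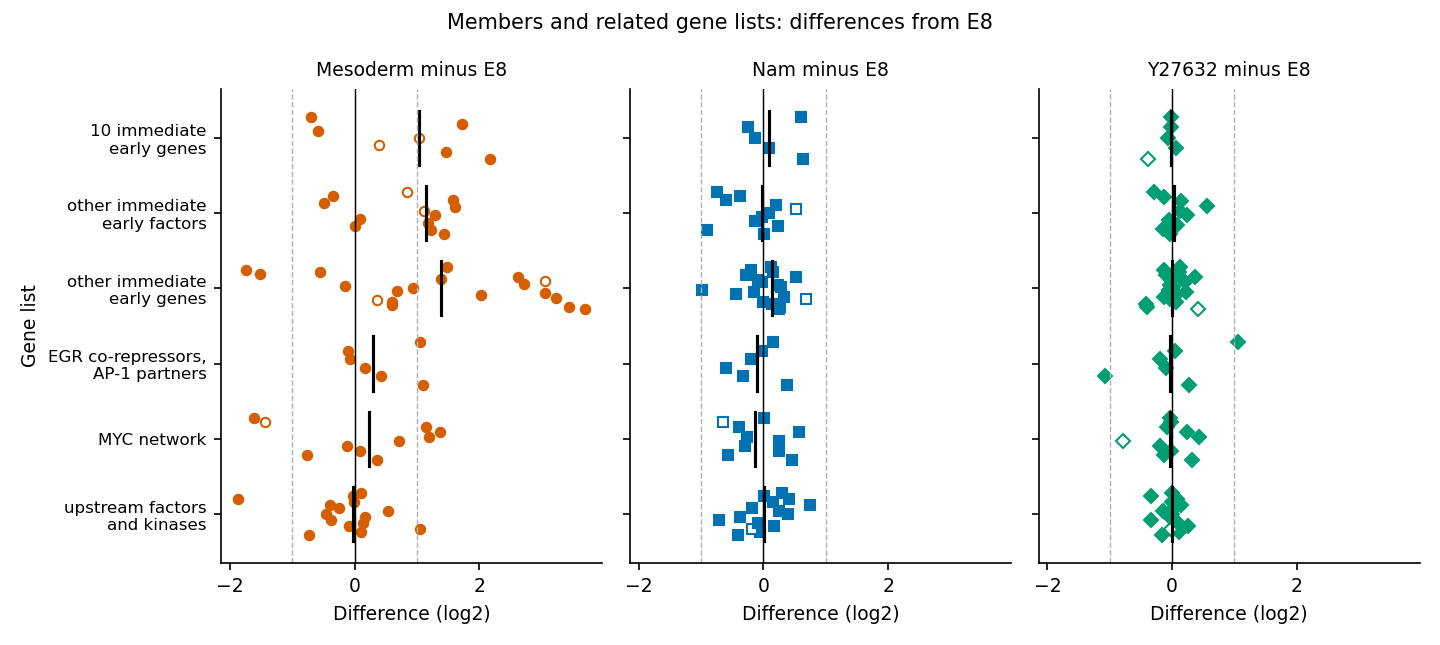
Difference from E8 (x axis, log2) of the immediate early genes and of 5 related gene lists on the Mesoderm, Nam and Y27632 arrays, 1 point per compared gene. Black bars are medians, open points were detected on 1 of the 2 arrays, and dashed lines mark 2-fold. On Mesoderm the medians of the other immediate early factors (1.15) and other immediate early genes (1.38) lie above 1, and on Nam and Y27632 nearly all points lie within 2-fold.

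Under the 8 alternative settings of the processing, EGR1 was higher on Mesoderm than on E8 by 1.21 to 2.17, JUN by 1.22 to 1.73 and FOS by 1.09 to 1.47, each at least 2-fold in all 8. The settings of detection and the probe rule could not move these values, since each gene has a single probe detected on both arrays. The ranges thus come from offset, background correction, scaling and the authors' values. FOSL1 was at least 2-fold higher in 4 of the 7 that could compare it. Of the settings that could move FOSL1, only median scaling (1.03) kept it there. MYC on Mesoderm lay between -0.86 and -0.63. On Nam, MYC lay between 0.43 and 0.60 and EGR1 between 0.27 and 0.63. The plot of the settings shows the first of these comparisons.

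**Figure D5:**
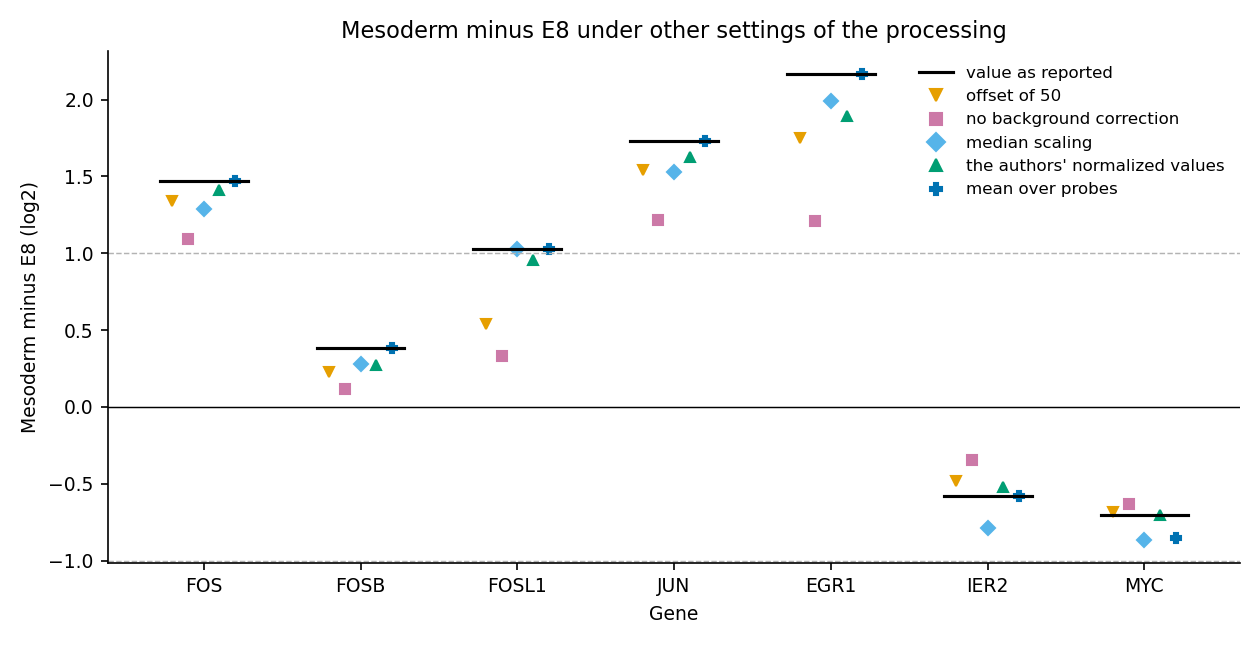
Mesoderm minus E8 (y axis, log2) of the 7 detected immediate early genes as reported (black bars) and under 5 other settings (symbols). EGR1, JUN and FOS stay above 1 under each, the lowest values coming without background correction, and FOSL1 drops to 0.33 there.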

How the data were processed

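RNA of 4 cultures was measured on 1 array each. Per the labels' protocols, total RNA was isolated with RNAiso Plus and labelled with a TargetAmp-Nano kit. The authors deposited a table of non-normalized signal intensity values with a detection p-value per probe and array, per the file headers, and a normalized table on a log2 scale, whose method is not given in the sources used here. The series matrix values were the same as that table (0 cells differed). Samples were assigned by title, and columns by names that match the titles. From the signal intensity, limma 3.58.1 in R 4.3.3 (neqc) subtracted a background fitted by a normal-exponential model from the deposited detection p-values; an offset of 16, quantile normalization over the 4 arrays and log2 followed, and differences of dim genes are understated. The steps were tested on simulated data.

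Of 47296 probes, 30105 had 1 symbol in the platform annotation, 8 had several and 17183 were unnamed here. Gene identifiers in the RefSeq table changed 0 symbols. A gene was represented by its probe with the highest mean level among probes detected (p at most 0.01) on at least 1 array, and compared where 1 of the 2 arrays detected it. Where the dimmer array did not, the fold is given as at least N-fold, against its own value or, if higher, the lowest level that a detected probe had there (5.63 on Mesoderm, 5.54 on Nam, 5.82 on Y27632, 5.59 on E8). These bounds hold for the main processing alone. Genes were called by size, at 2-fold, with no test. Promoter windows came from RefSeq (GRCh38.p14) for EGR1, EGR2, FOS, FOSB, IER2, JUN and JUNB. All members are named, and of each related list the 4 furthest called genes per comparison, or else the furthest gene. The members and lists were chosen with earlier results of these data known. The 8 alternatives cover offset, background correction, scaling, the authors' values, detection and the probe rule.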

Additional observations from a re-analysis of the deposited data

How the results depend on the processing

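Counts of all genes at 2-fold depended on how dim signals were treated, while the members kept their directions except for FOS near 0. For Mesoderm minus E8 the count of genes was 2565, and 1083 without background correction and 1622 with detection required on both arrays. For Nam minus E8 it was 257, and 71 with an offset of 50, 34 without background correction, 393 with median scaling, 142 in the authors' normalized values and 131 with detection on both arrays. For Y27632 minus E8 it was 45, and 1 with an offset of 50, 1 without background correction, 71 with median scaling, 15 in the authors' values and 7 with detection on both arrays. Median scaling moved the median difference of all genes to -0.19 for Mesoderm, -0.15 for Nam and -0.16 for Y27632, and the split of higher and lower genes to 1006 and 1746 on Mesoderm (1235 and 1330 as reported), 52 and 341 on Nam (79 and 178) and 19 and 52 on Y27632 (25 and 20). The median of the members for Mesoderm minus E8 was 1.03, and 0.54 with an offset of 50, 0.33 without background correction, 0.38 with no detection filter and 1.47 with detection on both arrays, which leaves out FOSB and FOSL1. The count of members at 2-fold was 4 or 3 on Mesoderm and 0 on Nam and Y27632 in each alternative. On Nam, EGR1 was under 1.5-fold with median scaling (0.43), in the authors' values (0.50), with an offset of 50 (0.45) and without background correction (0.27), and MYC with median scaling (0.43) and without background correction (0.56). No paired analysis was possible because each condition has 1 array, and no replicate could be left out. FOSB, FOSL1, JUNB and EGR3 are limited by a signal at or near background.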

Other observations

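In deposited signals, before any normalization, MYC and EGR1 were the members detected on both arrays that had a higher value on Nam than on E8. The ratio of Nam to E8 was 1.17 and 1.20 for the 2 MYC probes and 1.06 for EGR1, against 0.87 for FOS, 0.784 for IER2 and 0.765 for JUN, while the mean signal of the array was 528.5 on Nam and 620.5 on E8. FOSL1, not detected on either array, had a ratio of 1.12. The direction for MYC thus did not depend on the scaling, and that for FOS did.

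EGR1 and its co-repressor NAB2 did not keep the same order over the arrays. NAB2 had a signal of 300.3 on Mesoderm, 198 on Nam, 285 on Y27632 and 216 on E8, and EGR1 had 448, 213, 171 and 200.2 on the same arrays. NAB2 was thus high on the Y27632 array, where EGR1 missed the detection threshold narrowly (detection p 0.0104). The NAB2 difference from E8 there was 1.05, and 0.54 at the lowest in the alternatives. On Nam NAB2 was below E8 in signal but differed by 0.15 after normalization. The NAB2 and EGR1 values rest on 1 dim probe each, and no difference between the genes was tested.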
